A study of Mus musculus with 4 samples.

Results

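Among the autosomal sites where topoisomerase IIα (TopoIIa) was trapped in wild-type mouse embryonic stem cells, 726 strong ones had no counterpart in the peak list of the cells labelled Brg1-/-. They were chosen by measured values: a deposited wild-type score of at least 400, a width of at most 5000 bp, a position on chromosomes 1 to 19, and no peak of the Brg1 knockout list overlapping or within 1 kb. The 726 make up 4.53% of the 16012 autosomal peaks in a wild-type list of 16591. A further 98 strong peaks within the same width limit shared at least 1 bp with a knockout peak and are called kept sites below, and 2 had a knockout peak within 1 kb without overlap. Absent here means that no peak was called in the knockout list, which holds 4622 peaks. Autosomal knockout peaks had a median width of 141 bp, against 2166 bp for autosomal wild-type peaks. Whether the authors called peaks in both libraries with the same settings is not known, and what that means for a missing peak was not tested.

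Both groups of cells were the same Brg1f/f-CreER embryonic stem cell line, with the Cre-ER driven by actin, per the labels. Endogenous mouse TopoIIa was knocked down in them, and V5-tagged human TopoIIa was introduced by infection. Ethanol for 24 h gave the control, labelled wild-type, and tamoxifen for 24 h gave Brg1-/-. Each was followed by 48 h in stem cell medium and by 100 µM etoposide for 10 min. The wild-type label thus refers to the floxed Brg1 allele without tamoxifen, and the control cells carry the tagged enzyme and the knockdown too. The labels describe feeder cells for routine culture and gelatin during treatment. Each genotype gave 1 V5 immunoprecipitation and 1 input, 4 samples in all, and the peak lists of the V5 libraries were used. There is no replicate and the sequencing depth is unknown, so no test between genotypes was made. Neither list measures Brg1, and the genotypes rest on the labels.

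TopoIIa cuts both strands of a DNA duplex, passes another duplex through the gap and reseals it, which removes the intertwining left by replication. The enzyme is covalently joined to the cut ends for a moment, and etoposide prolongs that state, so DNA recovered with the enzyme marks positions where it was acting. Brg1, encoded by Smarca4, is the ATPase of the BAF (mSWI/SNF) remodelling complex of embryonic stem cells. The question behind the comparison, from the series title, is whether BAF complexes help TopoIIa to decatenate DNA.

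Most strong wild-type sites were missing from the knockout list, yet strong sites were missing less often than the average site. Of the 826 autosomal wild-type peaks with a score of at least 400 and a width up to 5000 bp, 726 had no knockout peak within 1 kb (87.9%, exact 95% interval 85.5 to 90.0%). Over all 16012 autosomal wild-type peaks the figure was 95.1%. These shares come from the contrast that defined the sites and are a description. Within the strong sites the share was 89.8% at scores from 400 to 500 (290 of 323) and 91.6% from 500 to 700 (239 of 261). It was 80.9% from 700 to 1000 (89 of 110) and 81.8% at 1000 or more (108 of 132). Among the 100 highest-scoring strong sites, 81 had no knockout peak. When only knockout peaks with a score of at least 100 were counted, 780 strong sites (94.4%) had none within 1 kb and 46 were kept.

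The score is the authors' value for each peak and can be compared only within its list. Across the 726 sites it ran from 400.12 to 3100, with a median of 545 and quartiles of 452 and 743. The kept sites reached from 401 to 3100 around a median of 631. Both ranges begin at the limit of the rule and end at 3100, so their overlap does not show that the sets were alike in score. The quartiles of the kept sites, 478 and 964, were both higher than those of the absent sites. Just inside the limit lay sites on chromosome 10 (score 400.12), chromosome 2 (400.53) and chromosome 5 (400.57). Just outside it, on chromosomes 8, 11 and 4, were peaks with scores of 399.97, 399.93 and 399.79, which also had no knockout peak within 1 kb.

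The absent sites were wider at the median by 127 bp, and the kept sites included more narrow peaks. The 726 sites had a median width of 2985 bp, with quartiles of 2562 and 3425 bp and extremes of 795 and 5000 bp. The kept sites had a median of 2858 bp, with quartiles of 2205 and 3198 bp. Peaks narrower than 2000 bp made up 6.06% of the absent sites (44 of 726, exact 95% interval 4.44 to 8.05%) and 19.4% of the kept sites (19 of 98, 12.1 to 28.6%), a width chosen after the values were seen. In each of 4 score ranges the absent sites had the wider median: 2848 against 2530 bp at scores of 400 to 500, 3009 against 2782 bp at 500 to 700, 3016 against 2855 bp at 700 to 1000, and 3270 against 3195 bp above. When only knockout peaks scoring at least 100 defined the sets, the median was 2985 bp for 780 absent and 2368 bp for 46 kept sites, a difference of 618 bp. Width rose weakly with score in both sets (Spearman's rho across peaks 0.21 in 726 and 0.19 in 98). Score and width come from the same reads, and peaks of 1 library are not replicates, so no p is given. Beyond the width limit, another 155 autosomal peaks scored at least 400, of which 129 had no knockout peak within 1 kb. The nearest of them to the limit were 5007 and 5032 bp wide, both on chromosome 8.

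**Figure D1:**
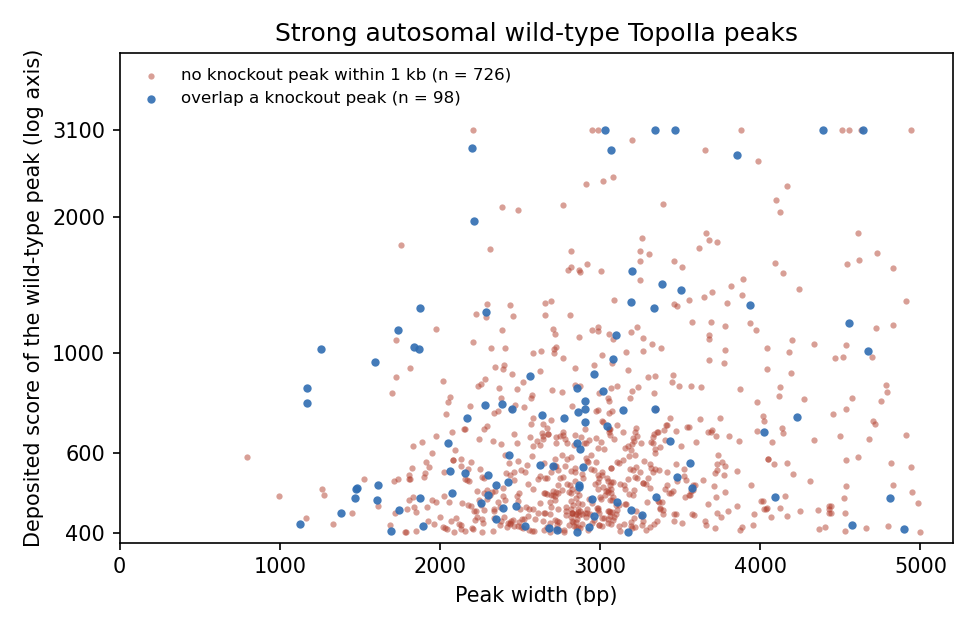
Deposited score (log axis) against width in bp of each strong autosomal wild-type peak, with 726 sites lacking a knockout peak in red and 98 kept sites in blue. The 2 sets cover the same range of scores, from about 400 to 3100, and blue points are relatively frequent among peaks narrower than 2000 bp (19 of 98, against 44 of 726 red points).

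The strongest of these sites are given by position in mm9, the build of the files. A score of 3100 was carried by 8 of the 726, a value shared with 5 kept sites, so their order among themselves holds no information. The narrowest of the 8, chr9:37736246-37738451, was 2206 bp wide. Its nearest knockout peak lay 909 kb away and its nearest wild-type peak 310 kb away. On chromosome 2, chr2:51801043-51803994 (2952 bp) had a wild-type neighbour with a score of 749 at 83.1 kb and a knockout peak at 83.7 kb. A second site on that chromosome, chr2:173576739-173581246 (4508 bp), was 284 kb from the nearest knockout peak. The last of these was the closest of the 3 to another wild-type peak, at 37.5 kb, and that neighbour scored 50.3.

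The site chr17:74433300-74436285 (2986 bp) had its nearest wild-type peak 301 kb away, with a score of 58.2. Chromosome 15 held a pair of sites with this score, chr15:12027016-12030893 (3878 bp) and chr15:83867601-83872541 (4941 bp). Their nearest knockout peaks were 39.8 kb and 783 kb away. The site chr18:84999036-85003588 (4553 bp) lay 225 kb from a knockout peak. By contrast with the isolated ones, chr11:58816706-58821336 (4631 bp) had a wild-type neighbour (score 262) only 1.08 kb away, while no knockout peak came closer than 1576 kb.

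The next scores belonged to chr6:125365171-125368366 (score 2955) and chr6:5653527-5657178 (2803), with wild-type neighbours at 20.261 and 17.998 kb. They were followed by chr9:14937746-14941730 (2652) and chr3:154076819-154079899 (2445). The knockout peaks nearest to these 12 top sites scored between 52.2 and 65.3, around the median of their own list (58.3). Whether the sites lie in genes or promoters was not analysed here, because the gene table at hand is of another build, and no sequence is printed for the same reason.

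The kept sites with a score of 3100 show what the alternative looked like. The knockout peak on most of them scored near 58.3, the median of the whole knockout list. It scored 60.9 at chr12:114661341-114664371, 52.5 at chr3:9449514-9452855, 54.0 at chr13:42179288-42183677 and 65.1 at chr8:86646389-86651028. At the fifth, chr4:118219120-118222588, the knockout peak scored 2000. Across all 98 kept sites there were 111 knockout peaks, with a median score of 89.5 (quartiles 61.5 and 185), against 58.3 over the whole knockout list, and 51 of them scored at least 100. They were narrow beside the wild-type peaks they lay on, with a median width of 183 bp (87 to 1740 bp) against 2858 bp. Of the 111, 76 (68.5%, exact 95% interval 59.0 to 77.0%) were centred within the middle 25% of the wild-type peak.

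Few of the absent sites were near misses. The distance from an absent site to the nearest knockout peak had a median of 266 kb, with quartiles of 104 and 559 kb and a largest value of 2795 kb, at chr4:46356453-46359170. Only 22 of 726 (3.03%, exact 95% interval 1.91 to 4.55%) had a knockout peak within 10 kb, and 180 (24.8%, 21.7 to 28.1%) within 100 kb. The 14194 weaker autosomal wild-type peaks that met the same width and distance limits had a median distance of 267 kb, with 3.68% within 10 kb and 23.5% within 100 kb. These shares of the weaker peaks lie inside the intervals of the strong sites. The 3 absent sites closest to a knockout peak were chr5:96149011-96151697 at 1.09 kb, chr8:127244428-127247295 at 2.15 kb and chr6:3081084-3085441 at 2.52 kb. On the other side of the limit, chr12:22509151-22512227 had a knockout peak at 0.609 kb and chr4:82710829-82714329 at 0.247 kb.

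A measure that the rule did not use is how many other wild-type peaks stood nearby. Another wild-type peak of any score lay within 50 kb of 434 of the 726 absent sites (59.8%, exact 95% interval 56.1 to 63.4%), and of 36 of the 98 kept sites (36.7%, 27.2 to 47.1%). The intervals do not overlap. They cover counting error only and take each peak as independent, although neighbouring peaks share surroundings and 1 library. The median distance to the next wild-type peak was 35.3 kb for absent and 67.1 kb for kept sites. Weaker wild-type peaks differed in the same direction, with 61.1% of 14194 absent and 38.3% of 608 kept peaks having a neighbour within 50 kb. At 50 kb the absent sites were thus close to the 60.5% of all autosomal wild-type peaks, and the kept sites lay below it. Of all autosomal wild-type peaks 95.1% had no knockout peak within 1 kb, so this background consists mostly of absent peaks. At shorter distances the absent sites lay below all autosomal peaks too. Within 10 kb the shares were 21.9% (18.9 to 25.1%) against 30.2%, and within 5 kb 12.3% (9.96 to 14.9%) against 21.0%.

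The contrast was also computed by chromosome and score. With the absent sites weighted to the chromosomes of the kept sites, 57.5% had a neighbour within 50 kb, and with weights for score range 58.3%. The share was higher among absent than among kept sites in each score range: 65.2% against 38.7% at scores from 400 to 500, 58.2% against 36.4% from 500 to 700, 50.6% against 23.8% from 700 to 1000, and 56.5% against 45.8% above. The difference was smallest in the highest range. In the last 3 ranges, with 22, 21 and 24 kept sites, the intervals overlap. Closer in, the contrast among strong sites was within the counting error: 21.9% of absent sites (18.9 to 25.1%) and 14.3% of kept sites (8.04 to 22.8%) had a neighbour within 10 kb. Among weaker peaks it was not: 30.6% of absent (29.9 to 31.4%) and 9.70% of kept peaks (7.47 to 12.3%) had one. With only sites scoring at least 800, the 10 kb difference turned to -1.46 percentage points, while at 50 kb the shares were 53.4% and 38.7%.

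**Figure D2:**
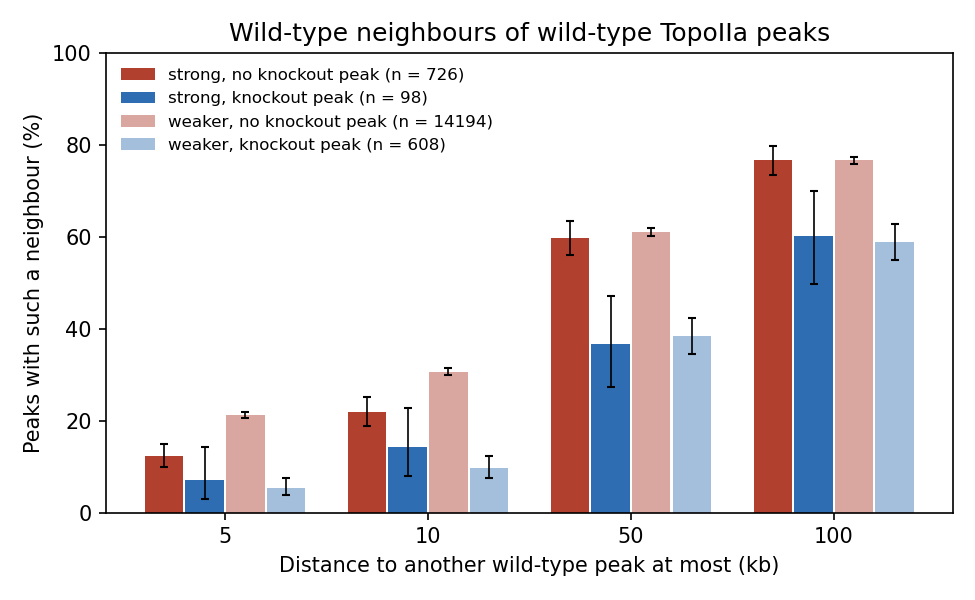
Percentage of wild-type peaks with another wild-type peak within 5, 10, 50 or 100 kb, for strong (score at least 400) and weaker autosomal peaks of at most 5000 bp, split by whether a knockout peak was absent within 1 kb or overlapped; error bars are exact 95% binomial intervals. At 50 kb the bars without a knockout peak stand at 59.8% and 61.1% and those with one at 36.7% and 38.3%.

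Counted the other way, the share of strong sites that were absent was higher in fuller neighbourhoods. It was 82.0% (292 of 356, exact 95% interval 77.6 to 85.9%) with no wild-type neighbour within 50 kb, 90.6% (193 of 213) with 1, 90.7% (127 of 140) with 2 to 3, and 97.4% (114 of 117, 92.7 to 99.5%) with 4 or more. The largest number of neighbours at an absent site was 15. Over all autosomal wild-type peaks, 7.12% of those without a neighbour within 50 kb (450 of 6318) overlapped a knockout peak, and 2.99% of those with a neighbour (290 of 9694). Few of the neighbours themselves overlapped a knockout peak, as was the case for wild-type peaks in general. Of the 1055 distinct wild-type peaks within 50 kb of the absent sites and outside the set, 19 did (1.80%, 1.09 to 2.80%). That interval, which covers counting error only, lies below the 2.99% of all autosomal wild-type peaks with a neighbour. It also lies below the 4.62% of all autosomal wild-type peaks without that condition. Around the kept sites it was 5 of 71 (7.04%, 2.33 to 15.7%), an interval that includes both of these background shares.

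The rule picks high scores, so most absent sites outscored their neighbours by construction. Of the 434 with a wild-type peak within 50 kb, 44 (10.1%) had one that outscored them, as did 2 of the 36 kept sites with a neighbour (5.56%). A neighbour that was itself strong (at least 400, of any width) lay within 50 kb of 81 absent sites (11.2%, 8.96 to 13.7%) and of 4 kept sites (4.08%, 1.12 to 10.1%). The sites most remote from any other wild-type peak were chr9:24955037-24957063 at 883 kb, chr13:11346144-11348932 at 848 kb and chr6:99641542-99644152 at 772 kb.

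How far strong absent sites stood apart from each other depends on the gap allowed. With gaps of at most 50 kb, 660 of the 726 were single and 66 (9.09%) stood in 31 groups. At 0.294 absent strong sites per Mb over the autosomes, most would be single at this gap in any case, so these counts are a description. When gaps of at most 1 Mb were allowed, 289 were single and 437 (60.2%) stood in 150 groups. At 50 kb the biggest 2 groups had 4 sites each. One on chromosome 12, from 112681851 to 112814650, held scores from 411 to 1096 and 1 further wild-type peak. The other on chromosome 15, from 75793367 to 75846936, held scores from 409 to 608 with no further wild-type peak. The remaining 29 groups were pairs, and the pair with the highest score (2099) lay on chromosome 7 from 35902709 to 35946584. No knockout peak fell inside any of these 3 groups, which span 133, 53.6 and 43.9 kb. Knockout peaks stood at 1.70 per Mb over the autosomes, and the rule bars them within 1 kb of each site. Spans this short would hold few in any case, so their lack is a description.

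Chromosome 12 carried more of these sites than any other autosome. It held 84 of the 726, or 0.693 per Mb counted to the last called wild-type peak, which is 2.45 times the median autosome (0.283 per Mb). Chromosome 8 followed with 65 sites (0.494 per Mb), chromosome 19 with 27 (0.440 per Mb) and chromosome 15 with 45 (0.435 per Mb), and chromosome 14 was lowest with 17 (0.136 per Mb). As a share of the wild-type peaks of the chromosome, absent strong sites made up 9.02% on chromosome 12 (exact 95% interval 7.26 to 11.0%), and from 2.58% on chromosome 10 to 6.22% on chromosome 15 elsewhere. What was high on chromosome 12 was the number of strong sites and not the share of them that was absent. That share was 91.3% there (84 of 92), against a median of 90.2% over the autosomes. Chromosome 13 had the lowest, 73.3% (22 of 30, 54.1 to 87.7%). Chromosomes are not replicates, and the intervals cover counting error only.

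**Figure D3:**
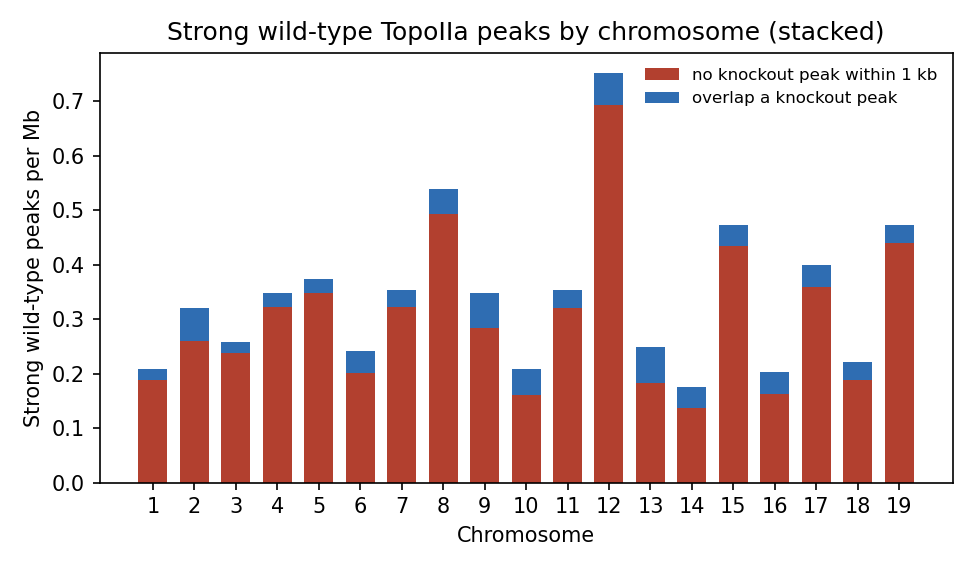
Strong wild-type peaks per Mb (chromosome length taken up to its last called peak) on chromosomes 1 to 19, stacked as sites without a knockout peak within 1 kb (red) and kept sites (blue). Chromosome 12 is highest with 0.693 red sites per Mb, and chromosome 14 lowest with 0.136.

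Much of the excess on chromosome 12 came from 1 stretch, looked for after the chromosome counts were seen. With gaps of at most 1 Mb between absent strong sites, the largest group held 30 of them, from 17887350 to 25338017. It was followed by 11 on the same chromosome from 111515736 to 114576012 and by 9 on chromosome 19 from 3317527 to 7498592. The stretch was picked as the largest run of absent strong sites and begins and ends with one, so its density of them is high by construction and is a description. The stretch of 7.45 Mb is 6.15% of the chromosome to its last peak and holds 35.7% of its absent strong sites. They stood at 4.03 per Mb there, against 0.294 per Mb over the autosomes, while wild-type peaks of any score stood at 10.5 against 6.48 per Mb. Of the 78 wild-type peaks in the stretch 30 were absent strong sites (38.5%). In the group of 11 there were 148 wild-type peaks. The rest of chromosome 12 held 54 absent strong sites (0.475 per Mb), 6.33% of its wild-type peaks (4.79 to 8.18%), against 4.53% over all autosomes.

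Width and score are given as a description for the 30 sites of the stretch, since the rule limits both. Their widths ran from 2241 to 3565 bp with a median of 2855 bp, and their scores from 406 to 845 with a median of 486, so that none reached 1000. The other 48 wild-type peaks there had a median score of 105, against 101 for all autosomal wild-type peaks outside the set. These medians do not show the upper end. The 48 ran from 51.37 to 470.61 and included peaks scoring 393.73, 382.65 and 366.88, below the score limit of the rule. Whether they scored higher than autosomal peaks at their upper end was not tested. The score limit thus did not fall in a clear gap between these peaks and the 30 sites. The sites were spread out and not packed: the gaps between successive ones had a median of 188 kb (quartiles 112 and 371 kb), and the closest pair, chr12:21832787-21835843 (score 736) and chr12:21838508-21841983 (score 669), was 2.66 kb apart. The strongest was chr12:24935209-24938773 (score 845).

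Knockout peaks were not missing from the stretch. It held 28, or 3.76 per Mb against 1.70 per Mb over the autosomes, with scores from 50.02 to 83.9. Of the 28, 2 overlapped a wild-type peak (7.14%, exact 95% interval 0.877 to 23.5%), against 891 of 4200 autosomal knockout peaks (21.2%), which lies inside that interval. The other strong wild-type peaks of the stretch were chr12:24780203-24783373 (score 401), which was kept, and the site with a knockout peak at 0.609 kb named above. The absent strong sites of the stretch had their nearest knockout peak at a median of 78.3 kb, closer than the 266 kb of the whole set. The inputs and an mm9 sequence were not used here, so how evenly reads can be placed along the stretch was not tested.

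**Figure D4:**
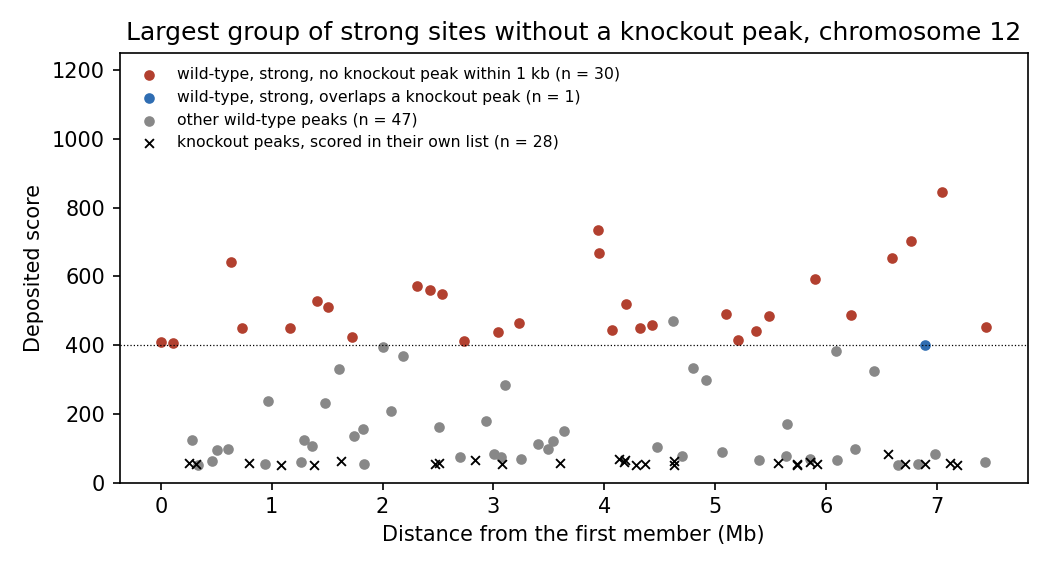
Deposited score against distance in Mb from the first site of the largest group on chromosome 12, for wild-type peaks (red, absent strong sites; blue, kept; grey, others) and knockout peaks (crosses, scored in their own list); the dotted line marks a score of 400. The 30 red sites lie between 406 and 845 along the whole stretch, and the 28 crosses all lie at 83.9 or lower.

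Position along the chromosome did not separate the sets. Absent sites within 10 Mb of the chromosome start were 39 of 726 (5.37%), and kept sites 6 of 98 (6.12%). Within 10 Mb of the last called peak there were 92 absent (12.7%) and 14 kept sites (14.3%). Over all autosomal wild-type peaks these shares were 5.23% and 12.9%, inside the counting intervals of each set.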

How the data were processed

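The authors deposited 1 list of peaks per V5 library, with chromosome, start, end, name and a score without a header. The submitters' processing notes name Bowtie 0.12.8, MACS 1.4.2 and mm9 without roles. Threshold, control and filters were not given in the sources used here, and depth is unknown. Peaks were called per library, as far as the lists show. Groups came from sample titles.

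Gaps were counted in bases between peak edges, and positions are printed 1-based. Shares carry exact Clopper-Pearson 95% intervals, covering counting error only. No test was run, since each group has 1 library and peaks are not replicates. Planned comparisons of gene starts and base composition were not run, because the reference table is of GRCm38.p6. Most named sites followed a fixed rule, with ties broken by width. Outside that rule were the peaks just over the width limit, the site farthest from a knockout peak, and the sites and groups named at gaps of 1 Mb. The third group at 50 kb was taken by its top score among 29 pairs. The members and lists were chosen with earlier results of these data known. In 4 simulated knockout lists the overlap code missed 0 planted overlaps. Computation used matplotlib 3.10.9, scipy 1.17.1, pandas 2.3.3 and numpy 2.4.6 under Python 3.11.15.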

Additional observations from a re-analysis of the deposited data

How the results depend on the processing

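Of 49 alternative values, 36 stayed inside the counting interval of the reported value, 12 moved out of it and 1 reversed. Some alternatives measured another quantity, such as neighbours within 5 or 50 kb in place of 10 kb, so these counts do not measure robustness. For the 10 kb difference from the kept sites, the interval held their counting error only. It ran from -0.905 to 13.9 percentage points, so staying inside it is a weak criterion. The share of strong sites without a knockout peak (87.9%) became 83.9% at scores of at least 800, 85.2% with a limit of 10 kb and 94.4% against knockout peaks scoring at least 100. With those knockout peaks the median width of absent sites exceeded that of the 46 kept sites by 618 bp, against 127 bp. The share of absent sites with a wild-type neighbour within 10 kb (21.9%) became 29.4% with no width limit, 15.9% at widths up to 3000 bp, 12.3% within 5 kb, 59.8% within 50 kb and 13.2% for neighbours scoring at least 100. Its difference from the kept sites (7.62 percentage points) was 23.0 points at 50 kb and -1.46 points at scores of at least 800, where 31 kept sites remained. At 50 kb the absent sites had the higher share under all 9 changes of the rule. Chromosome 12, at 2.45 times the median autosome in sites per Mb, was at 1.68 times without its stretch and at 1.01 times in the share of strong sites that were absent. Why values moved under other settings was not tested. Weighting by chromosome or score range, the difference from the kept sites, the values without the stretch and the share of a chromosome's wild-type peaks (2.10 times) were chosen after seeing the data. Leaving out a replicate was not possible, since each group is a single library. Sites without a knockout peak are uncalled there at an unknown depth.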
